A study of Rattus norvegicus with 12 samples.

Results

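The glucocorticoid receptor gene Nr3c1, the corticosteroid enzyme gene Hsd11b1 and 7 genes that glucocorticoids are known to raise in many tissues (Fkbp5, Tsc22d3, Sgk1, Zbtb16, Klf9, Pdk4 and Dusp1) were measured in the lumbar mammary gland of young female rats. The members were chosen by gene name, and the array carries 10 probes for these 9 genes among 30367 gene probes in all. All 10 probes were well above background on all 12 arrays and all were tested, among 23209 probes tested. Each gene is described by its brightest probe, and only Nr3c1 has another.

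The samples are glands of Wistar rats whose mothers were fed during pregnancy either a low protein diet (LP, 8.8% protein) or a normal protein diet (NP, 17.0% protein), and the mothers received standard chow while nursing. The offspring were nursed until weaning at day 21 and had standard chow after it. Glands were taken at day 21, at weaning and at the start of pubertal duct growth, or at day 28, with 3 rats in each of the 4 groups LP d21, NP d21, LP d28 and NP d28 and 1 one-colour array per rat. The gland was taken whole with its fat pad, after removal of visible lymph nodes, so that fewer cells of a type and less RNA per cell cannot be told apart. Nothing in the sources used here says which of the 12 rats were littermates, and p-values measure the spread between these samples.

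Glucocorticoids act through a receptor that is held in the cytoplasm by chaperones and enters the nucleus when corticosterone, the main glucocorticoid of rodents, binds to it. How much hormone reaches the receptor depends on enzymes in the tissue itself, which convert active corticosterone and inactive dehydrocorticosterone into each other. In the mammary gland glucocorticoids act together with prolactin and insulin in alveolar differentiation and milk protein expression. The study measured corticosteroids in serum, and the comparison of LP with NP glands asks whether the receptor, the enzyme and the target genes differed in the gland itself.

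Values are the log2 of the processed signal relative to the 75th percentile of the array, so that 0 is the level of that percentile and a difference of 1 is a 2-fold difference. They compare arrays for the same probe and do not rank genes. Arrays are named by group and label number, for example 4a. The 12 arrays were of similar quality, with 74.8% to 79.6% of gene spots well above background and no saturated spot. The array LP d21 6a stood apart from the others, with a median correlation of 0.960 with the other arrays against 0.974 to 0.989 for the rest. On it the summed signal of 6 lymphocyte markers was 0.124 times the 75th percentile, against 6.89 to 16.7 on the other arrays, and 3 of the 6 were well above background. The 4 white adipocyte and the 5 luminal epithelial markers on the array were well above background in every sample.

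None of the 9 genes passed an adjusted p of 0.05 between LP and NP at day 21 or day 28, or between the days (limma with Benjamini-Hochberg adjustment over 23209 probes). Over all tested probes 0% passed in LP against NP at either day and 1.81% between the days. At day 28, 8 of the 9 genes were higher in LP, with a median difference of 0.29 on the log2 scale against -0.05 over all tested probes. With the row of the array on its slide as a covariate 5 of the 9 were higher, with a median of 0.04. All NP arrays lay in row 1 and only LP arrays in row 2. A row effect and a difference of the LP rats in row 2 cannot be told apart. The gene with the lowest p was Tsc22d3 at day 28, which was 1.36-fold higher in LP than in NP.

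**Figure D1:**
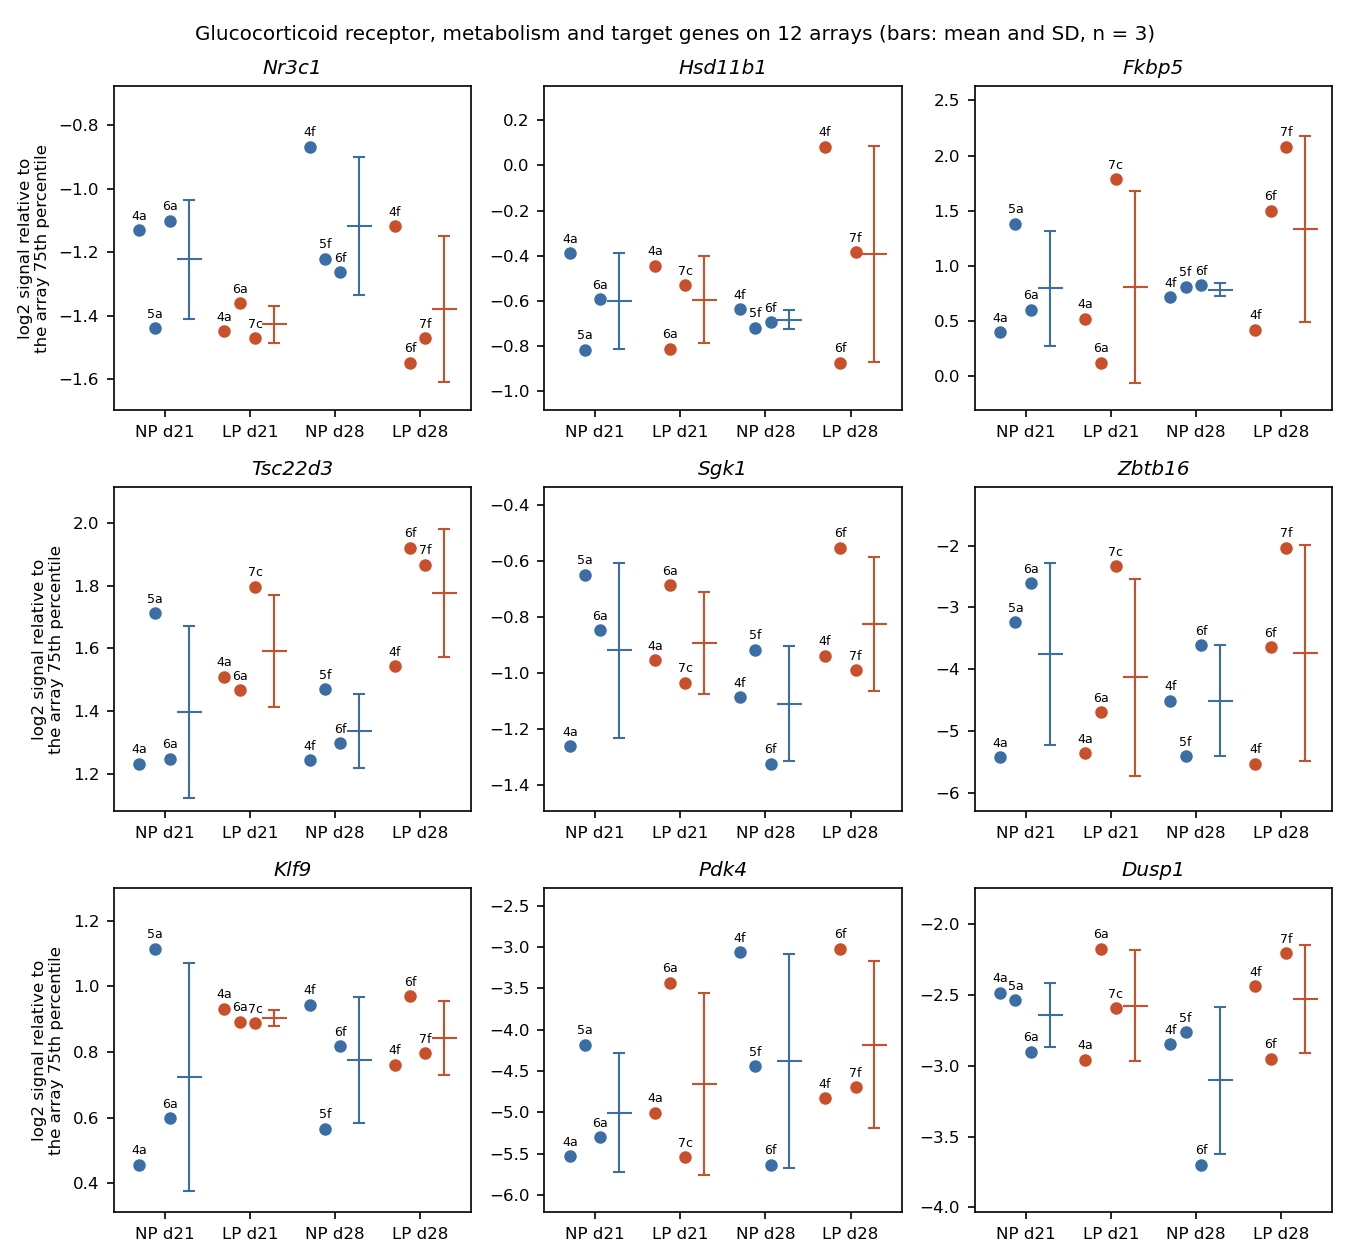
Log2 signal of the 9 genes relative to the 75th percentile of the array, in 12 glands of 4 groups. Each point is 1 rat with its label number, the horizontal mark and bars show the mean and SD of 3 rats, and each panel has its own scale. Tsc22d3 at day 28 is the gene whose LP and NP samples do not overlap.

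Promoter sequences are shown for Tsc22d3, Klf9 and Dusp1, the members in which a searched motif of a known signalling pathway was found. RefSeq starts (GRCr8) gave 12 windows of the 250 bases before a start, for 7 of the 9 genes, and Hsd11b1 and Zbtb16 had no entry. The response element of the receptor, searched as the hexamer AGAACA and its reverse complement TGTTCT spaced by 3 bases, was found in 4 of 33469 windows of the genome (0.012%) and in none of the 12, on either strand. The hexamer alone was in 17.5% of all windows and in none of the 12. These letters are absent from these windows only, and distal elements were not searched.

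The forkhead box O motif GTAAACA, searched on both strands, was present in 3.21% of all windows and in 2 of the 12, those of Klf9 and of 1 of the 3 starts of Tsc22d3. The TATA box TATAAA was present in 12.9% of all windows, and in that same window of Tsc22d3 and 2 of the 3 windows of Sgk1. The cyclic AMP response element TGACGTCA (1.59% of all windows) and the E-box CACGTG (5.59%) were both found in the Dusp1 window, 124 and 107 bases before the start. Capitals mark these motifs in the windows below, each given 5′ to 3′ on the strand of the gene.
Tsc22d3 (GRCr8, chrX:109010035-109010284, minus strand): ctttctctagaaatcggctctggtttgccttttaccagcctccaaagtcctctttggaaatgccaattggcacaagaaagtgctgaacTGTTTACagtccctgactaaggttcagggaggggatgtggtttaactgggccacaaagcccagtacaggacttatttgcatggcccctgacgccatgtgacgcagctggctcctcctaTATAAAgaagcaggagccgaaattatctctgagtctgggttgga
Klf9 (GRCr8, chr1:230126396-230126645, plus strand): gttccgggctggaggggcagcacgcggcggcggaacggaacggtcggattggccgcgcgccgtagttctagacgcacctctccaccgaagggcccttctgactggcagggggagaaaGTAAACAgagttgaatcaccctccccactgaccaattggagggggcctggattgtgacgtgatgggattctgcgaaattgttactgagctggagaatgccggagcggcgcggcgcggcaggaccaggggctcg
Dusp1 (GRCr8, chr10:17184603-17184852, plus strand): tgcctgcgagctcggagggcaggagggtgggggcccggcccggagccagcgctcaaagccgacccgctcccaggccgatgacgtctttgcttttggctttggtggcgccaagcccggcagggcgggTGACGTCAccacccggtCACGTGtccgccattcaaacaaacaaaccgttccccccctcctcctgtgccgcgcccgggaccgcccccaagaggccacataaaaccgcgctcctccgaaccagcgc
In the Tsc22d3 window the forkhead motif is read on the other strand and begins 162 bases before the start. The Klf9 motif begins 133 bases before the start, as written. A match is a description of the letters and was not tested as a binding site.

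Nr3c1 encodes the glucocorticoid receptor, the transcription factor through which corticosterone acts. Its brightest probe (rn4, chr18:32371607-32371666) read -1.13, -1.44 and -1.10 in NP d21 and -1.45, -1.36 and -1.47 in LP d21. At day 28 it read -0.87, -1.22 and -1.26 in NP and -1.12, -1.55 and -1.47 in LP. The LP means were lower on both days, but on each day a sample of 1 diet lay within the range of the other. The LP minus NP difference was -0.20 at day 21 (SE 0.153, limma adjusted p = 0.867) and -0.26 at day 28 (SE 0.153, limma adjusted p = 0.582), with 95% intervals of -0.55 to 0.14 and -0.60 to 0.08. At day 28 the difference was -0.14 without NP d28 4f and -0.39 without LP d28 4f, and it was -0.14 with the slide row as a covariate. At day 21 it was -0.31 without NP d21 5a and -0.0845 with the slide row.

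The other Nr3c1 probe (rn4, chr18:32375401-32375460) gave smaller differences between the diets. It read from -3.98 to -3.47 over the 12 arrays, with LP minus NP differences of -0.03 at day 21 (SE 0.148) and -0.07 at day 28 (SE 0.148). Both probes were lower in LP on both days, and neither passed the test. The 2 probes correlated over the 12 arrays with r = 0.485 (permutation p = 0.111) and rho = 0.494 (permutation p = 0.106), and r was 0.774 without the 2 arrays farthest from the median of the first probe. Within the days r was 0.722 over the 6 arrays of day 21 and 0.387 over the 6 of day 28. Between the 2 spots of the first probe the largest difference on an array was 0.51, against a range of 0.68 over all arrays.

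Hsd11b1 encodes the enzyme that regenerates active corticosterone from dehydrocorticosterone inside cells. It read (rn4, chr13:109063624-109063683) -0.39, -0.82 and -0.59 in NP d21, and -0.44, -0.81 and -0.53 in LP d21. The values of day 28 were -0.64, -0.72 and -0.69 in NP, and 0.08, -0.87 and -0.39 in LP. The NP samples of day 28 lay close together (SD 0.0426), while LP d28 held both the highest sample of all, 4f, and the lowest, 6f (SD 0.478). The difference was 0.00 at day 21 (SE 0.216, limma adjusted p = 0.999) and 0.29 at day 28 (SE 0.216, limma adjusted p = 0.613). Without LP d28 4f it was 0.05 at day 28 (limma adjusted p = 0.924), without LP d28 6f 0.53 (limma adjusted p = 0.601), and with the slide row as a covariate 0.60 (limma adjusted p = 0.946). The summed signal of 6 skeletal muscle markers was 63.0 times the 75th percentile on LP d28 6f and 0.664 on LP d28 4f, and the part of muscle tissue in the spread of Hsd11b1 was not tested.

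Fkbp5 encodes a co-chaperone that lowers the affinity of the receptor for its hormone and is itself induced by the receptor. Its probe (rn4, chr20:6637600-6637659) read 0.40, 1.38 and 0.60 in NP d21 and 0.52, 0.12 and 1.79 in LP d21. In the glands of day 28 it read 0.72, 0.81 and 0.83 in NP and 0.42, 1.50 and 2.08 in LP. Samples 7f and 7c, both LP, were the highest of the 12 arrays, and LP d21 6a was the lowest, with a range of 3.88-fold. The residual SD within groups was 0.658, larger than in 91.0% of tested probes.

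The LP minus NP difference of Fkbp5 was 0.01 at day 21 (SE 0.487, limma adjusted p = 0.999) and 0.55 at day 28 (SE 0.487, limma adjusted p = 0.657). The 95% interval at day 28 was -0.54 to 1.64, so that a difference above 2-fold in favour of LP lay inside it. Without LP d28 7f the day 28 value was 0.18 and without LP d28 4f it was 1.01, and with the slide row as a covariate it was -0.05. All NP arrays and both LP arrays of number 4 lay in row 1 of their slide, and the other LP arrays in row 2. The row is thus estimated within LP only, and the adjusted diet difference leans on the LP arrays of number 4. The summed signal of 4 macrophage markers was highest on LP d28 7f, at 5.88 times the 75th percentile, and lowest on LP d21 6a, at 1.95. These are the same samples in which Fkbp5 was highest and lowest, and the part of macrophages in it was not tested.

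Tsc22d3 encodes GILZ, a leucine zipper protein that mediates anti-inflammatory actions of glucocorticoids. At day 21 its probe (rn4, chrX:128336564-128336623) read 1.23, 1.71 and 1.25 in NP and 1.51, 1.47 and 1.80 in LP. For day 28 the values were 1.25, 1.47 and 1.30 in NP and 1.54, 1.92 and 1.87 in LP. The LP samples of day 28 all lay above the NP samples of day 28, whereas the groups of day 21 overlapped through NP 5a. Tsc22d3 was the only member whose LP and NP samples did not overlap at day 28, beside 16.8% of all tested probes in either direction and 4.41% of all tested probes with LP higher.

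The difference of Tsc22d3 at day 28 was 0.44 (SE 0.163, 95% interval 0.08 to 0.80). Its unadjusted p of 0.0226 from limma was under 0.05, as were those of 1.98% of all probes in the same direction, and the limma adjusted p was 0.581. At day 21 the difference was 0.19 (SE 0.163, limma adjusted p = 0.889), and 0.35 without NP d21 5a and 0.0906 without LP d21 7c, and from day 21 to day 28 it changed by 0.25 (SE 0.230, limma adjusted p = 1). With the normexp background the day 28 value was 0.28 (limma adjusted p = 0.739), and with the slide row as a covariate it was also 0.28 (limma adjusted p = 0.946). Over its 23 alternatives the difference ran from 0.28 to 0.56, with limma adjusted p between 0.348 and 0.946. Some of these, such as other filters or leaving out an array of day 21, leave the difference unchanged by construction. They cannot show how stable its sign is.

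The summed signals of 3 lists of cell type markers also separated the diets at day 28, and those of the other marker lists overlapped. Of all tested probes 16.8% had LP and NP samples that did not overlap at day 28. The summed signal of 5 luminal epithelial markers was 24.6 to 26.8 in LP d28 and 9.54 to 22.1 in NP d28, and that of 6 lymphocyte markers was 6.89 to 12.2 in LP and 13.3 to 16.7 in NP. The 4 red blood cell markers summed to 122 to 131 in LP and 135 to 208 in NP. By mean log2 signal they overlapped, with 1.49 to 1.81 in LP and 1.58 to 2.36 in NP. The basal epithelial markers overlapped by sum but not by mean log2 signal, with -0.748 to -0.618 in LP and -2.48 to -0.752 in NP. Of the 5 basal markers 4 were higher in LP at day 28 and 1 was lower. The lower 1 was the only basal marker with an unadjusted p under 0.05 in limma, beside 8.07% of all tested probes. None of these lists held a gene with a limma adjusted p under 0.05 at day 28. Their part in the Tsc22d3 difference was not tested.

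Sgk1 encodes a kinase that regulates ion channels and cell survival. Its probe (rn4, chr1:23501718-23501777) read -1.26, -0.65 and -0.85 in NP d21 and -0.95, -0.69 and -1.04 in LP d21. At day 28 it read -1.09, -0.92 and -1.33 in NP and -0.94, -0.55 and -0.99 in LP. The groups overlapped on both days, through NP 5f at day 28. The LP minus NP difference was 0.03 at day 21 (SE 0.189, limma adjusted p = 0.989) and 0.28 at day 28 (SE 0.189, limma adjusted p = 0.591). The day 28 value was 0.15 without LP d28 6f and 0.18 without NP d28 6f.

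Dusp1 encodes a phosphatase that inactivates MAP kinases. Its probe is placed across 320 bases (rn4, chr10:16944342-16944661). It read -2.48, -2.54 and -2.90 in NP d21 and -2.96, -2.17 and -2.59 in LP d21. The values of day 28 were -2.85, -2.76 and -3.70 in NP and -2.44, -2.95 and -2.20 in LP. NP d28 6f was the lowest of the 12 arrays, and LP d28 6f lay within the range of NP. The difference at day 28 was 0.57 (SE 0.297, limma adjusted p = 0.581), and it was 0.27 without NP d28 6f. At day 21 it was 0.07 (SE 0.297, limma adjusted p = 0.981).

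Klf9 encodes a zinc finger transcription factor that responds to glucocorticoid and thyroid hormone. Its probe (rn4, chr1:226445625-226445684) read 0.46, 1.12 and 0.60 in NP d21 and 0.93, 0.89 and 0.89 in LP d21. In the glands of day 28 it read 0.94, 0.57 and 0.82 in NP and 0.76, 0.97 and 0.80 in LP. The LP d21 samples were nearly equal (SD 0.0247) and lay inside the wide range of NP d21 (SD 0.347). The difference was 0.18 at day 21 (SE 0.167, limma adjusted p = 0.894) and 0.07 at day 28 (SE 0.167, limma adjusted p = 0.886). The day 21 value was 0.0468 without NP d21 4a and 0.38 without NP d21 5a.

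Zbtb16 encodes the zinc finger protein PLZF, a transcriptional repressor. Its probe (rn4, chr8:51934505-51934564) read -5.42, -3.24 and -2.61 in NP d21 and -5.36, -4.70 and -2.34 in LP d21. For day 28 the values were -4.51, -5.41 and -3.61 in NP and -5.53, -3.65 and -2.03 in LP. The range over the 12 arrays was 11.3-fold, and the samples were spread widely within each group, with a residual SD of 1.47 that exceeded 98.7% of tested probes. The 2 spots of the probe differed by at most 0.23 on an array. The difference was -0.38 at day 21 (SE 1.08, limma adjusted p = 0.968) and 0.77 at day 28 (SE 1.08, limma adjusted p = 0.780), with an interval of -1.62 to 3.17 at day 28. With the slide row as a covariate the day 28 value was -0.74, and without LP d28 7f it was -0.08.

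Pdk4 encodes a kinase that inactivates pyruvate dehydrogenase and so spares glucose. Its probe is placed across 1889 bases (rn4, chr4:30239150-30241038). It read -5.53, -4.18 and -5.30 in NP d21 and -5.01, -3.43 and -5.55 in LP d21. At day 28 it read -3.06, -4.44 and -5.64 in NP and -4.83, -3.02 and -4.69 in LP. LP d28 6f, NP d28 4f and LP d21 6a were the highest samples, 1 of each of 3 groups, and the range was 6.13-fold. The residual SD was 1.05, larger than in 97.0% of tested probes, and the 2 spots differed by up to 0.63, more than for any other member. The difference was 0.34 at day 21 (SE 0.771, limma adjusted p = 0.958) and 0.20 at day 28 (SE 0.771, limma adjusted p = 0.931), with values from -0.43 to 0.86 at day 28 when single arrays were left out. The 6 muscle markers summed to 75.1 on LP d21 6a and 63.0 on LP d28 6f but to 2.22 on NP d28 4f, and to 50.9 on NP d21 6a, where Pdk4 was among the lower samples, and the part of muscle tissue in Pdk4 was not tested.

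At day 21, 0 of the 9 genes passed an adjusted p of 0.05 in limma and 0 an unadjusted p of 0.05, beside 0% and 4.36% of all tested probes, and 0 had LP and NP samples that did not overlap, beside 11.5%. Of the 9 differences 7 were above 0 and 2 below, from -0.38 to 0.34, with a median of 0.03 against 0.01 over all tested probes. Without LP d21 6a, 4 of the 9 were above 0, with a median of -0.08, and 3 were with the slide row as a covariate. At day 28, 0 passed the adjusted test and 1 the unadjusted one, beside 0% and 8.07% of all probes. The 8 genes above 0 ran from 0.07 for Klf9 to 0.77 for Zbtb16, and Nr3c1 was the gene below 0. Without single arrays 7 or 8 of the 9 were above 0. A change of the diet difference from day 21 to day 28 was called for 0 of 9 genes, adjusted or unadjusted, beside 0% and 2.26% of all probes, and the limma adjusted p was 1 for all 9.

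**Figure D2:**
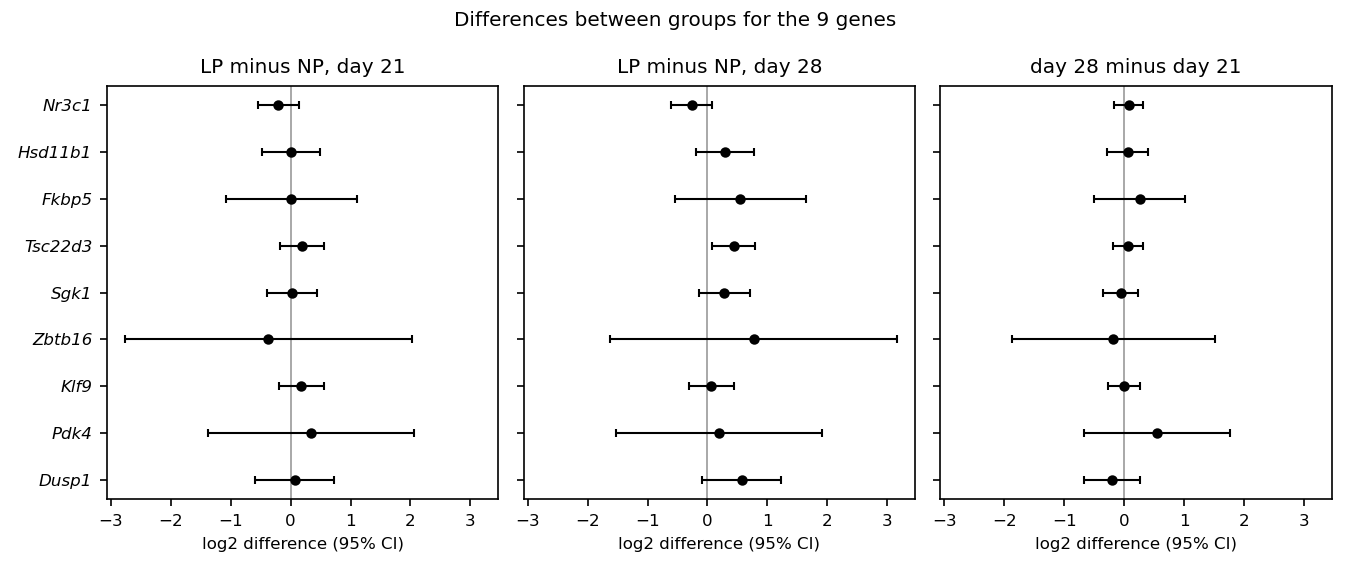
Differences between groups for the 9 genes on the log2 scale, with 95% confidence intervals from limma, as LP minus NP at day 21 and day 28 and as day 28 minus day 21 over both diets. Apart from that of Tsc22d3 at day 28, from 0.08 to 0.80, each interval includes 0, and those of Zbtb16 and Pdk4 are the widest.

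Between the days, over both diets, 0 of the 9 genes passed an adjusted p of 0.05 and 0 an unadjusted p of 0.05, beside 1.81% and 19.2% of all tested probes, and 0 had days that did not overlap, beside 3.72%. Pdk4 had the largest difference, 0.55 higher at day 28 (SE 0.545, limma adjusted p = 0.608), with the arrays of the days overlapping. Dusp1 was 0.21 lower at day 28 (SE 0.210, limma adjusted p = 0.612), and Fkbp5 was 0.26 higher (SE 0.344, limma adjusted p = 0.715). The receptor gene Nr3c1 differed by 0.08 (SE 0.108, limma adjusted p = 0.728) and Hsd11b1 by 0.06 (SE 0.153, limma adjusted p = 0.861). The intervals of Nr3c1, Tsc22d3, Sgk1 and Klf9 lay within 0.36 of 0 on the log2 scale. Each slide held the arrays of a single day, so that slide and day cannot be told apart.

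The members varied together over the arrays in some pairs, with the 4 groups pooled. All 36 pairs were tested with permutation p-values, adjusted by Benjamini-Hochberg over the 36. Nr3c1 and Tsc22d3 were opposed, with r = -0.82 (permutation p = 0.00121, adjusted p = 0.0436) and rho = -0.823 (permutation p = 0.00162, adjusted p = 0.0583) over 12 arrays. Samples with little signal for the receptor gene had the most for Tsc22d3, as in LP d28 6f (-1.55 and 1.92), and NP d28 4f had the reverse (-0.87 and 1.25). Without these arrays, the 2 farthest from the median of Nr3c1, r was -0.777. Over the 12 arrays Nr3c1 also had r = -0.738 with the mean log2 signal of the basal epithelial markers and r = -0.668 with that of the luminal markers. For Tsc22d3 these values were 0.482 and 0.497. With the mean of each group removed they were -0.6 and -0.518 for Nr3c1 and 0.26 and 0.213 for Tsc22d3. Of the other marker lists the endothelial one had the largest r in size with Nr3c1, 0.612, and it had -0.566 with Tsc22d3. With group means removed these were 0.733 and -0.339. The part of cell composition in the opposition of Nr3c1 and Tsc22d3 was not tested.

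Within the days, and so within the slides, r for Nr3c1 and Tsc22d3 was -0.91 at day 21 (exact permutation p = 0.0222, rho = -0.886) and -0.853 at day 28 (exact permutation p = 0.0333, rho = -0.771), over 6 arrays each. Without LP d21 6a, r over 11 arrays was -0.836. The p-values within the days are not adjusted, and the pair had the lowest p of the 36 over these same arrays. The values within the days are therefore not independent of that choice. Hsd11b1 and Sgk1 had a lower exact permutation p at day 21 (0.0125, r = -0.925). The other probe of Nr3c1 gave r = -0.674 with Tsc22d3 (permutation p = 0.0172) and rho = -0.58 (permutation p = 0.0524), with r = -0.654 without the 2 farthest arrays, -0.879 at day 21 and -0.484 at day 28. All values of an array share 1 scaling to its 75th percentile, and diets are pooled in these correlations. The permutations did not keep the diets apart. With the mean of each group removed, r for Nr3c1 and Tsc22d3 was -0.806.

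Fkbp5 correlated positively with Tsc22d3 and with Zbtb16 over the arrays, with an adjusted p above 0.05 for both. For Fkbp5 and Tsc22d3 r was 0.784 (permutation p = 0.00331, adjusted p = 0.0521) and rho 0.671 (permutation p = 0.0208, adjusted p = 0.250), with r = 0.798 at day 21 and 0.778 at day 28. For Fkbp5 and Zbtb16 r was 0.766 (permutation p = 0.00434, adjusted p = 0.0521) and rho 0.755 (permutation p = 0.00604, adjusted p = 0.109), with r = 0.726 at day 21 and 0.887 at day 28. The LP arrays 7c and 7f, which were highest for both Fkbp5 and Zbtb16, were also the 2 arrays farthest from the median of Fkbp5. Without them r was 0.654 for Fkbp5 and Tsc22d3 and 0.528 for Fkbp5 and Zbtb16. Sgk1 and Pdk4 followed with r = 0.634 (permutation p = 0.0275, adjusted p = 0.247) and rho = 0.636 (permutation p = 0.0304, adjusted p = 0.274), and r was 0.387 without the 2 farthest arrays.

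**Figure D3:**
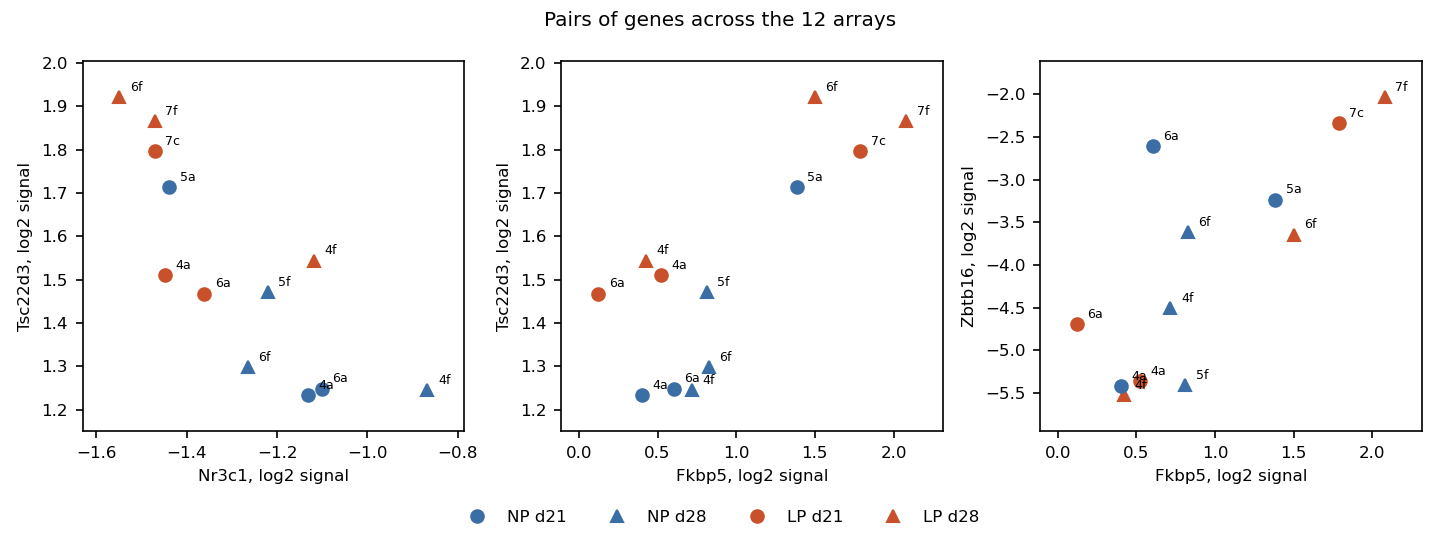
Log2 signal relative to the array's 75th percentile for Nr3c1 against Tsc22d3, Fkbp5 against Tsc22d3 and Fkbp5 against Zbtb16. Each of the 12 points is 1 array with its label number, colours mark the diet and shapes the day. Tsc22d3 is lower where Nr3c1 is higher (r = -0.82), and the LP arrays 7c and 7f lie at the upper right in both Fkbp5 plots.

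The genes whose pattern over the 12 arrays was most like that of a member were taken from 13839 probes with a symbol that were well above background on all arrays, and are given as a description with no p. For Nr3c1 these were Ldhb, a lactate dehydrogenase subunit (r = 0.972), Optn (r = 0.922) and Cbr3 (r = 0.912). For Hsd11b1 they were Aldh3a2, a fatty aldehyde dehydrogenase (r = 0.888), Cs, the citrate synthase gene (r = 0.863), and Idh3g (r = 0.830). For Fkbp5 they were Mrc1, the macrophage mannose receptor (r = 0.886), Otor (r = 0.864) and Ms4a4a (r = 0.861).

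The closest gene to Tsc22d3 was Cdkn1a, which encodes the cell cycle inhibitor p21 (r = 0.886), followed by Hopx (r = 0.872) and Slc7a6 (r = 0.864). For Zbtb16 the closest were Chrd, which encodes the BMP antagonist chordin (r = 0.921), Aebp1 (r = 0.884) and Arhgap10 (r = 0.875). Pdk4 was closest to Duox2 (r = 0.903), Abcg5 (r = 0.898) and Dynlrb2 (r = 0.872), and Dusp1 to Pcaf, an acetyltransferase (r = 0.901), Olr791 (r = 0.844) and Serpinb8 (r = 0.811). For Sgk1 and Klf9 the highest values were 0.844 with Stard10 and 0.885 with Tmprss8.

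The genes around the receptor were looked at through lists chosen with earlier results of these data known. Of 15 receptor partners (chaperones, coregulators and the mineralocorticoid receptor), 0 passed the adjusted test in LP against NP at either day and 1 did between the days. Over all tested probes 0% passed in LP against NP at either day and 1.81% between the days. At an unadjusted p under 0.05 in limma there were 0, 2 and 3 of them at day 21, at day 28 and between the days. The shares of all tested probes were 4.36%, 8.07% and 19.2%. The gene called between the days was Hsp90ab1, a chaperone that holds the receptor in its hormone-binding state. It was 0.29 higher at day 28 (SE 0.0613, limma adjusted p = 0.0453), with means of 4.92 at day 21 and 5.22 at day 28. Slide and day cannot be told apart in this difference. The other HSP90 gene, Hsp90aa1, read 2.22 ± 0.425 (SD, n = 3) in NP d28 and 2.68 ± 0.0972 in LP d28 (difference 0.46, SE 0.184, limma adjusted p = 0.581). Nrip1, a corepressor of nuclear receptors, read -1.41 ± 0.117 in NP d28 and -1.86 ± 0.041 in LP d28 (difference -0.45, SE 0.140, limma adjusted p = 0.581). At day 21 Nrip1 differed by -0.30 (limma adjusted p = 0.861).

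Of 13 genes of corticosteroid synthesis, conversion, binding and export, 9 were tested and 0 passed the adjusted test in any comparison, with 0, 0 and 1 at an unadjusted p under 0.05 at day 21, at day 28 and between the days. The shares of all tested probes at this unadjusted p were 4.36%, 8.07% and 19.2%. Hsd11b2, which inactivates corticosterone and so opposes Hsd11b1, read -1.95 ± 1.45 in NP d28 and -1.12 ± 0.133 in LP d28 (difference 0.83, SE 0.543, limma adjusted p = 0.590). The median LP minus NP difference of the list was -0.10 at day 21 and 0.09 at day 28.

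Of 31 further genes known to be raised by glucocorticoids 30 were tested, and 0 passed the adjusted test in any comparison, with 3 at an unadjusted p under 0.05 at day 21 (4.36% of all tested probes) and 6 between the days (19.2% of all tested probes, near the share in the list). At day 28, 15 of them were higher and 15 lower in LP, with a median of 0.02, and 0 had an unadjusted p under 0.05, beside 8 of the 9 members above 0, and the difference between these counts was not tested. At day 21 the lowest unadjusted p-values were those of G6pc, the glucose-6-phosphatase gene (-0.68, limma adjusted p = 0.861), Lcn2, which encodes lipocalin-2 (1.12, limma adjusted p = 0.861), and the metallothionein gene Mt2A (0.70, limma adjusted p = 0.861). Mt2A was also 0.56 higher in LP at day 28 (limma adjusted p = 0.581). Between the days the lowest were Zfp36, which encodes an mRNA-destabilising protein (0.77 higher at day 28, limma adjusted p = 0.0841), Glul, the glutamine synthetase gene (0.51 higher, limma adjusted p = 0.119), and the cell cycle inhibitor Cdkn1c (-0.37, limma adjusted p = 0.153).

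The remaining lists cover processes in which the members also take part. Among 12 tested genes of the circadian clock, whose rhythm Klf9 is known to follow, 0 passed the adjusted test, and at day 28, 2 were higher and 5 lower in LP at an unadjusted p under 0.05, beside 8.07% of all tested probes in either direction. Dbp, a clock output factor, was lower in LP (-1.20, SE 0.286, limma adjusted p = 0.581), Tef differed by -0.87 (SE 0.232) and Nr1d1 by -2.13 (SE 0.654), each with a limma adjusted p of 0.581. The hour at which glands were taken is not given in the sources used here. Among 12 immediate-early genes, the class to which Dusp1 belongs, 0 passed the adjusted test. At day 28, 1 passed an unadjusted p of 0.05, Ier2 (-0.30, limma adjusted p = 0.581), beside 8.07% of all tested probes. Between the days 3 of the 12 did, beside 19.2%. Among 11 genes of fatty acid oxidation, the fuel that Pdk4 favours, 0 passed the adjusted test. At day 28, 1 passed an unadjusted p of 0.05, Ucp3 (0.76, SE 0.296, limma adjusted p = 0.581), beside the same 8.07%.

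**Figure D4:**
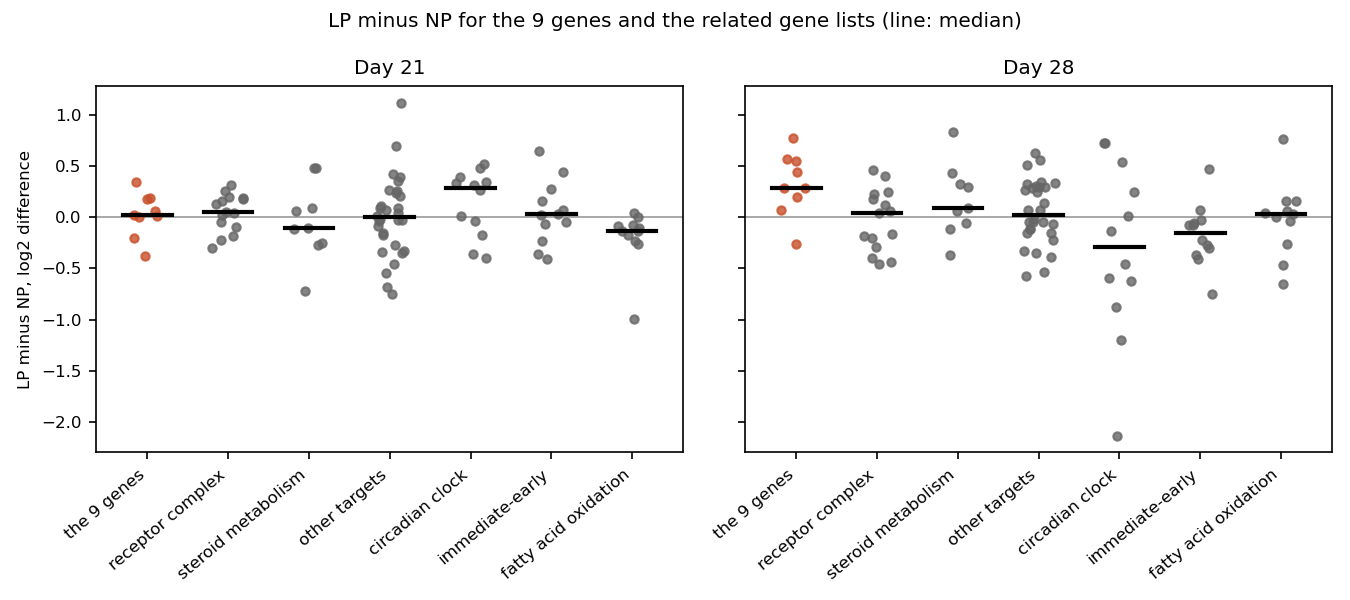
LP minus NP differences on the log2 scale at day 21 and day 28 for the 9 genes and 6 related lists, each point a gene and each line the median. At day 28 the median of the 9 genes is 0.29 and that of the other glucocorticoid targets 0.02, and Nr1d1 of the clock list is lowest at -2.13.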

How the data were processed

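Total RNA of 12 lumbar mammary glands was hybridised by the authors to 1-colour Agilent arrays, and the deposited scanner files hold intensity values read with Agilent Feature Extraction 10.7.3.1. The processed signal is corrected for background within the array and not normalised between arrays. A further table deposited by the authors holds ratio values, each array's signal over its median, used as an alternative. Probe positions are those of the array annotation (rn4), and promoter windows come from RefSeq (GRCr8).

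Control spots (4259) and outlier spots (259 to 766 per array) were left out, and the 75th percentile of each array (1451 to 2370 signal units) was subtracted on the log2 scale. The spots of a probe (2 for each member) were averaged. Testing was limited to probes that exceeded background clearly on 3 or more of the 12 arrays, by limma 3.58.1 (lmFit and eBayes, 1 fit over the 4 groups) in R 4.3.3, with Benjamini-Hochberg adjustment over 23209 probes. The number of arrays limits the precision. Correlations were tested with 100000 permutations, or all 720 orders of 6 arrays, in numpy 2.4.6 and scipy 1.17.1. Members and lists were chosen with earlier results of these data known. The genes named are all members, the 3 genes of each list with the lowest p in each comparison, of which the text prints those it discusses, and the 3 genes most like each member. Alternatives were quantile normalisation, normexp background (offset 50), no filter, a filter on all 12 arrays, only the arrays of a day, an intensity trend, the replicate number as a block, the slide row, the deposited table, all probes of a gene averaged, and leaving out each array. Leaving out LP d21 6a and NP d28 4f together was chosen after seeing the data. The pipeline was tested on simulated data. Rosetta Resolver, which the authors used for their own calls, was not used.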

Additional observations from a re-analysis of the deposited data

How the results depend on the processing

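None of the 9 genes was called in any comparison under any of the 22 or 23 alternatives run. In LP against NP 0% of all tested probes passed in the main fit, so that this says little about the 9 genes. The deposited table, the filters and leaving out an array of the other day leave a diet difference unchanged by construction. They cannot show how stable it is. The sign of some differences did change. With the array's slide row as a covariate, LP minus NP was -0.58 for Fkbp5, -0.0602 for Sgk1, -0.15 for Pdk4 and -0.0804 for Dusp1 at day 21, and -0.0487 for Fkbp5, -0.74 for Zbtb16 and -0.30 for Pdk4 at day 28. With quantile normalisation Fkbp5 was -0.00297 at day 21. With the normexp background the day difference of Sgk1 was 0.00198 and the change between days of Klf9 was 0.10. Without LP d21 6a and NP d28 4f, Sgk1, Pdk4 and Dusp1 were -0.0759, -0.27 and -0.14 at day 21, the day difference of Hsd11b1 was -0.00633, and the changes between days of Nr3c1 and Pdk4 were 0.10 and 1.13. The cause was not tested.

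The label numbers were not taken to pair the samples, since the sources used here do not say what they mark. Deviations of equally numbered arrays of a diet correlated from -0.0553 to 0.379, and those of the other diet on the same day from 0.0886 to 0.132. So few correlations cannot decide whether the samples are paired. For LP against NP the block was the replicate number. Numbers 4 and 6 occur in both diets, number 5 only in NP and number 7 only in LP. The diet difference averaged over the days therefore rests on numbers 4 and 6 in this fit. With it Hsd11b1 and Fkbp5 were -0.0771 and -0.26 at day 21 and Zbtb16 was -0.20 at day 28. It moved the Sgk1 difference at day 28 from 0.28 to 0.48 (limma adjusted p = 0.637). For the days the block was the replicate number within each diet, and 21 probes were called between the days, against 421 without it. Neither block changed a call of a member.

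Leaving out single arrays gave, at day 21, -0.14 to 0.26 for Dusp1, -0.47 to 0.36 for Fkbp5, -0.10 to 0.11 for Hsd11b1, -0.27 to 0.78 for Pdk4, -0.14 to 0.16 for Sgk1 and -1.28 to 0.24 for Zbtb16. At day 28 it gave -0.0381 to 0.15 for Klf9, -0.43 to 0.86 for Pdk4 and -0.0786 to 1.67 for Zbtb16. Between the days it gave -0.0592 to 0.18 for Hsd11b1, -0.0710 to 0.0939 for Klf9, -0.15 to 0.00545 for Sgk1 and -0.61 to 0.27 for Zbtb16. For the change between days it gave -0.31 to 0.0200 for Klf9, -0.19 to 0.0672 for Nr3c1 and -0.77 to 0.52 for Pdk4. All probes called between the days numbered 421, and 271 with normexp, 217 without a filter on dim probes, 208 without both arrays, and 99 (without NP d21 6a) to 398 when single arrays were left out.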

Other observations

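Markers of red blood cells were lower at day 28 than at day 21 over both diets, in 4 of 4 genes. An adjusted p of 0.05 in limma was passed by 2 of the 4, beside 1.81% of all tested probes. The summed signal of these markers was 173 to 249 times the 75th percentile on the 6 arrays of day 21. It was 122 to 208 on the 6 of day 28. Slide and day cannot be told apart in this difference. The lists of white adipocyte, luminal and basal epithelial, muscle, brown adipocyte, lymphocyte, macrophage, endothelial, fibroblast and liver markers held 0 genes that passed the adjusted test in any comparison, and 0 to 2 genes each at an unadjusted p under 0.05. The unadjusted shares of all tested probes were 4.36% at day 21, 8.07% at day 28 and 19.2% between the days.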
